A study of Homo sapiens with 6 samples.

Results

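The proteasome genes of a human cell line were compared between cells given an antisense oligonucleotide and control cells. The genes were chosen by their symbols, which run from PSMA through PSMG followed by a number, and PSMC3IP, a recombination factor, was left out. This gave 48 of the 19655 genes in the deposited table. No measured value enters that choice, but the topic was proposed with the difference between the groups already known. The counts, fold changes and p-values of the set are therefore a description and support nothing beyond themselves.

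RNA was sequenced from cells labelled HCT116, an established colorectal carcinoma line, in DMEM with foetal bovine serum. The ASO group, 3 libraries, was transfected with an antisense oligonucleotide against SNORA67, a short nucleic acid that pairs with its target RNA. The NC group, 3 libraries, is labelled as control, and what its cells received is not given in the sources used here. SNORA67 is a box H/ACA small nucleolar RNA, the class that guides pseudouridylation, and the study asked how it acts in this cancer line. Dose, time of harvest and number of oligonucleotides are not given either. Separate cultures are not mentioned in the labels, so the spread behind each p-value is that of these 6 libraries and may be technical.

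Total estimated counts were 49136502 to 54905215 in ASO libraries and 50728524 to 53715905 in NC libraries. Genes with at least 1 count numbered 15452 to 15665 in ASO libraries and 13934 to 13995 in NC libraries. Mitochondrially encoded genes took 1.89% to 2.66% of counts in ASO libraries and 2.8% to 3.31% in NC libraries. SNORA67 itself was not analysed here, so the knockdown was not checked directly. EIF4A1, its host gene, stood at 651, 564 and 636 CPM in the ASO libraries and at 1490, 1543 and 1600 CPM in the NC libraries (CPM, counts per 1e6 of the scaled library total). Of 12 colon epithelium markers, KRT8 and KRT18 were the 2 at 10 CPM or more in NC. The defining markers EPCAM (2.51 to 3.5 CPM in ASO and 3.39 to 5.60 CPM in NC) and CDH1 (1.68 to 1.94 CPM in ASO and 0.88 to 1.32 CPM in NC) were low, and CDX2 was at 0.491 CPM or less in every library. Of the 10 epithelial markers tested, LGALS4 and VIL1 were called higher and the other 8 did not pass. Over all tested genes, 26.8% were called higher and 19.1% lower. LGALS4 was at 15 to 20.1 CPM in ASO and 0 to 0.0198 CPM in NC (edgeR adjusted p = 2.43e-06). VIL1 was at 10.9, 1.12 and 14.6 CPM in ASO and 0, 0.202 and 0 CPM in NC (edgeR adjusted p = 0.00382). Both passed the filter on low counts through the ASO libraries alone. In every NC library both were under the detection limit of 12 counts. VIM, a mesenchymal marker, stood at 1171 to 1375 CPM in ASO and 1147 to 1296 CPM in NC. The 9 mesenchymal markers summed to 3135 to 3591 CPM in ASO and to 2210 to 2476 CPM in NC, but they went both ways. COL1A1, COL3A1, COL5A1 and FN1 rose 2.33-fold, 3.93-fold, 2.09-fold and 1.83-fold, and PDGFRB, LUM and DCN fell 2.47-fold, 2.42-fold and 1.91-fold. The 8 haematopoietic markers summed to 16.2 to 19.3 CPM in ASO and to 1.20 to 2.29 CPM in NC, with PTPRC and CD3E at 0 in every library. All 5 tested had positive fold changes, as did 7139 of all 14062 genes tested. CD79A, ITGAM and CD14 were called higher, and 2 did not pass. CD79A was under 12 counts in every NC library and passed the filter on low counts through the ASO libraries alone. CD14 was under 12 counts in NC 1 and did not meet that filter on its NC libraries alone. The part of these differences in the results below was not tested. In such bulk RNA, fewer cells of a type and less RNA per cell cannot be told apart.

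The proteasome is the main protease for ubiquitin-tagged proteins in the cytosol and nucleus. Its barrel, the 20S core, stacks rings of alpha subunits (PSMA), which gate the pore, around rings of beta subunits (PSMB), some of which cut proteins. The 19S cap recognises ubiquitin, removes it and unfolds the substrate with a ring of ATPases (PSMC) held by non-ATPase subunits (PSMD). Other caps (PSME) open the barrel without ubiquitin, PSMF1 can inhibit it, and PSMG chaperones build its rings. In cells that lose proteasome activity, the transcription factor NFE2L1 raises most subunit genes together through antioxidant response elements.

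The region before the start site is shown for 4 genes whose promoter table entry is a single window, picked after their values were seen: PSMA3 and PSMD14 with falls of about 2-fold, PSMB3 with a small fall, and PSMB10, an inducible subunit without a call. Each is the 150 bases ahead of the RefSeq start in GRCh38.p14, 5′ to 3′ on the strand of the gene. Capitals mark matches, on either strand, to the antioxidant response element core TGACNNNGC, the CCAAT box, the ETS factor core CGGAAG and the interferon-stimulated response element core GAAANNGAA.
PSMA3, chr14:58244693-58244842, plus strand: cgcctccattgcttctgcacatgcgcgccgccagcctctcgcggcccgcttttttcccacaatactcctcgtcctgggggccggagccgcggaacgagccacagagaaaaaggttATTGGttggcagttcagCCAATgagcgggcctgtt
PSMD14, chr2:161308275-161308424, plus strand: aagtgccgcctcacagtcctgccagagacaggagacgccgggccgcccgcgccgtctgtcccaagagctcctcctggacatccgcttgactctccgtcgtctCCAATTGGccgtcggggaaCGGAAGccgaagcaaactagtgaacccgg
PSMB3, chr17:38752591-38752740, plus strand: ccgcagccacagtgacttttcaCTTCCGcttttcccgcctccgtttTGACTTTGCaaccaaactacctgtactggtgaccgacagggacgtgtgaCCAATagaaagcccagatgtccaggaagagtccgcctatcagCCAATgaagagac
PSMB10, chr16:67936851-67937000, minus strand: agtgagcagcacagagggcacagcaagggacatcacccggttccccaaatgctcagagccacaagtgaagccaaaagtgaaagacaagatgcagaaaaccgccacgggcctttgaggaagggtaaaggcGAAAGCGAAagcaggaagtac
PSMB3 holds TGACNNNGC, with CCAAT on its plus strand and CGGAAG on the other. PSMD14 holds overlapping CCAAT matches on both strands next to CGGAAG. PSMA3 holds CCAAT on both strands, and PSMB10 holds GAAANNGAA.

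The full windows, 250 bases before to 50 after the start, matched 42 of the 48 genes, with 51 windows in all because 8 genes have several. PSMA7, PSMB1, PSMB6, PSMB7, PSMD4 and PSMG3 had no entry. CGGAAG was in 54.9% of the proteasome windows, against 28.3% of the windows of all tested genes and 19.5% of all windows. TGACNNNGC was in 15 of the 51, or 29.4%, against 14.3% and 13.3%. GAAANNGAA was in 15.7%, against 6.53% and 8.11%, and CCAAT in 39.2%, against 34.3% and 34.6%. Of the genes holding TGACNNNGC, PSMA4, PSMB3, PSMC4, PSMC5, PSMD1, PSMD3, PSMD9, PSME1, PSMG1 and PSMG2 fell. PSMB9, PSMD5, PSMD12, PSME2 and PSME4 did not pass the test. PSMA4, PSMC5 and PSMG2 have several windows, and not all of them held the match. A match describes the letters of a window and is not a bound site.

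Most proteasome genes were lower in ASO libraries. Of the 48 genes, PSMA8, an alpha subunit of testis, had 0 counts in every library, which is under the detection limit of 12 counts, and the other 47 passed the filter on low counts. In the table-wide edgeR quasi-likelihood fit, 32 fell at an adjusted p under 0.05, 1 rose and 14 did not pass. Of all 14062 genes tested, 19.1% were called lower and 26.8% higher. Among the 9103 genes at a mean of 10 CPM or more those shares were 24.2% and 21.2%, and 45 of the proteasome genes, the 32 lower ones among them, belong to that class. The median log2 fold change of the 47 was -0.43, that of all tested genes 0.01 and that of genes at 10 CPM or more -0.09. The 32 falls ranged from 1.23-fold to 2.48-fold, with a median of 1.47-fold.

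Every ASO library was below every NC library in 35 of the 47, and the reverse held for 1. Over all tested genes such separation was found for 25.9% with ASO below and 31.6% with ASO above. Proteasome genes together took 0.641%, 0.644% and 0.649% of all counts in ASO libraries, against 0.888%, 0.910% and 0.898% in NC libraries. The groups were far apart on this summed share, and libraries of a group were close to each other on it. Single genes shifted in opposite directions within a group. Of the 34 constitutive 20S and 19S genes, ASO 2 was the highest ASO library in 17 and the lowest in 14. Summed CPM over the 20S genes was 2548 ± 63.1 in ASO and 3499 ± 49.7 in NC (SD, n = 3 each), and over the 19S genes 3421 ± 34.6 in ASO and 4767 ± 67.9 in NC.

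**Figure D1:**
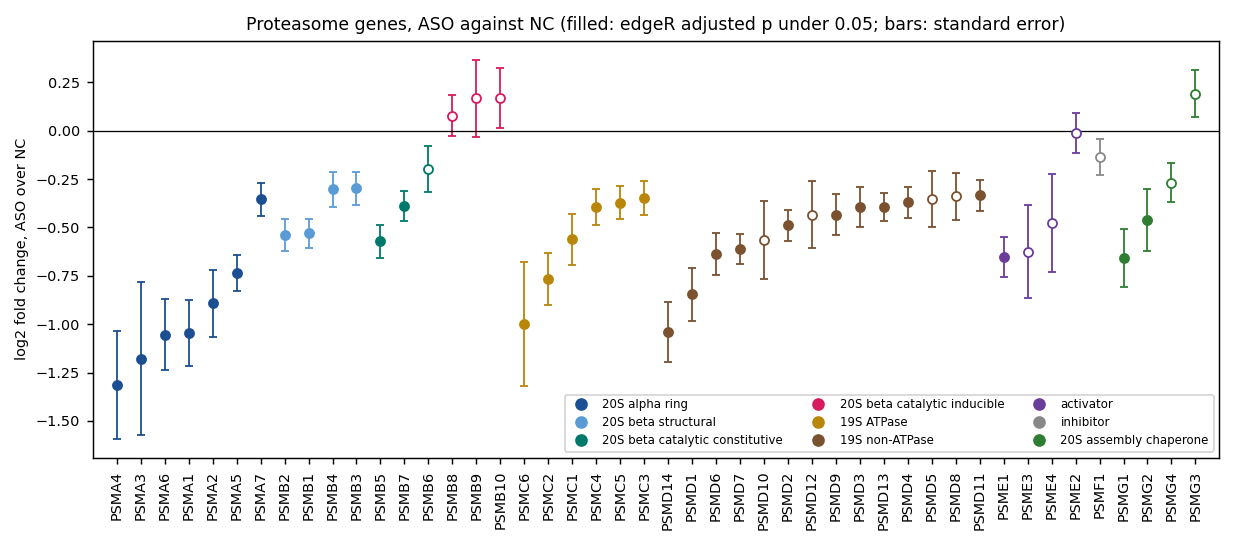
Fitted log2 fold change of ASO over NC for 46 proteasome genes, ordered by class, with bars of 1 standard error. Filled points passed the edgeR threshold; PSMB11 lies off the scale and PSMA8 had no counts, so neither is drawn. The alpha ring reaches lowest, and the inducible beta subunits sit above 0.

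All 7 alpha ring genes tested fell, and their median log2 fold change was -1.04. PSMA4 (chromosome 15, 78540405 to 78552417, hg38) was at 37.2, 81 and 47.8 CPM in ASO libraries, against 127, 166 and 118 CPM in NC libraries. It is an alpha subunit and had the steepest fitted fall of the set, 2.48-fold (edgeR adjusted p = 0.00687). PSMA3, another alpha subunit, was at 9.96, 33.8 and 18.3 CPM in ASO, against 42.6, 58.3 and 39.6 CPM in NC. For both genes the ASO values lay below all NC values, with ASO 2 the highest of its group. The log2 fold change of PSMA3 was -1.18 with a standard error of 0.40, and its call was narrow (edgeR adjusted p = 0.0419). Without ASO 1, ASO 3, NC 1, NC 2 or NC 3 the adjusted p of PSMA3 was 0.0531, 0.122, 0.0792, 0.161 or 0.0749.

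PSMA6, also of the alpha ring, was at 35.7, 54.9 and 44.4 CPM in ASO and at 84.1, 112 and 84.5 CPM in NC, a fall of 2.08-fold (edgeR adjusted p = 0.0027). The other alpha genes that fell were PSMA1 by 2.06-fold, PSMA2 by 1.86-fold, PSMA5 by 1.67-fold and PSMA7 by 1.28-fold. PSMA7, at 447 ± 36.7 CPM in ASO and 572 ± 31.2 CPM in NC, had the highest level per kilobase of transcript of the whole set, 449 CPM in ASO and 574 CPM in NC, and the smallest fall of its ring.

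All 4 structural beta genes fell, by 1.23-fold to 1.45-fold. PSMB2 was at 202, 215 and 195 CPM in ASO, against 308, 275 and 305 CPM in NC, and fell 1.45-fold (edgeR adjusted p = 0.00152). PSMB1 was at 109, 110 and 115 CPM in ASO and at 159, 161 and 162 CPM in NC, with almost no spread inside either group (edgeR adjusted p = 0.00112). PSMB4, at 433, 363 and 431 CPM in ASO and 514, 480 and 521 CPM in NC, fell 1.23-fold (edgeR adjusted p = 0.0277). PSMB3 fell 1.23-fold as well (edgeR adjusted p = 0.0246). Both calls were weak and were lost in some of the fits with a library left out. Without ASO 3, NC 1 or NC 3 the adjusted p was 0.0521, 0.0741 or 0.0516 for PSMB4 and 0.0625, 0.0623 or 0.0528 for PSMB3.

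**Figure D2:**
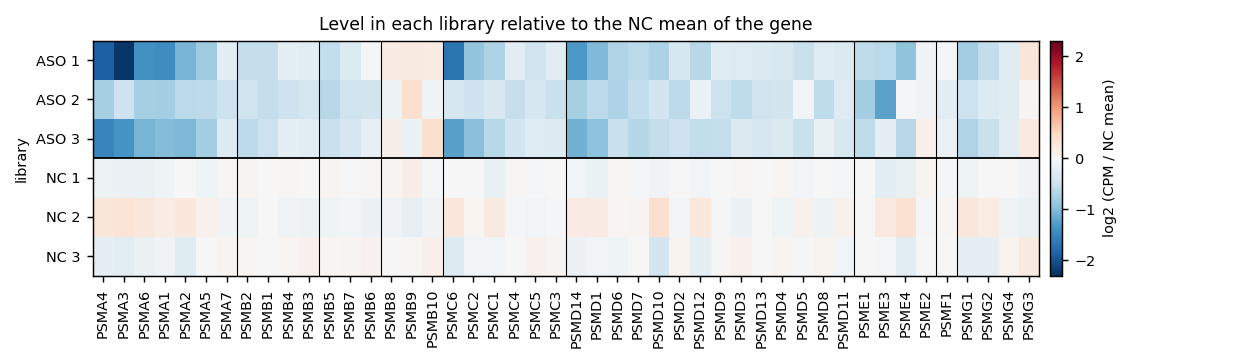
Level of each of 46 proteasome genes in each library, as log2 of its CPM over the NC mean of that gene, with ASO libraries above NC libraries and classes divided by lines. Blue is below the NC mean and red above; PSMA3 in ASO 1 is the deepest blue, while the PSMB8, PSMB9 and PSMB10 columns are pale or red in ASO. PSMB11 and PSMA8 are left out.

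Of the 3 constitutive cutting subunits 2 fell, and of their 3 inducible counterparts none passed the test. The difference between the forms was not itself tested. PSMB5, the chymotrypsin-like subunit, was at 154, 146 and 160 CPM in ASO, against 238, 213 and 234 CPM in NC, and fell 1.49-fold (edgeR adjusted p = 0.00122). PSMB7, the trypsin-like subunit, was at 243, 220 and 232 CPM in ASO, against 302, 290 and 318 CPM in NC, and fell 1.31-fold (edgeR adjusted p = 0.00538). PSMB6, the caspase-like subunit, was at 196, 149 and 175 CPM in ASO, against 202, 181 and 214 CPM in NC. ASO values of PSMB5 and PSMB7 were all below NC, whereas those of PSMB6 overlapped and its log2 fold change of -0.20 ± 0.12 (SE) did not pass (edgeR adjusted p = 0.211).

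The inducible subunits replace these 3 in the immunoproteasome, the form that interferon raises and that favours peptides for MHC class I. PSMB8, which takes the place of PSMB5, was at 146, 118 and 140 CPM in ASO and at 133, 121 and 129 CPM in NC (log2 fold change 0.08 ± 0.11, SE; edgeR adjusted p = 0.57). PSMB9, the counterpart of PSMB6, was at 7.77, 8.76 and 6.16 CPM in ASO and at 7.49, 5.88 and 6.83 CPM in NC (edgeR adjusted p = 0.522). PSMB10, the counterpart of PSMB7, was at 23.7, 19.7 and 27.1 CPM in ASO and at 20.2, 19.8 and 22.8 CPM in NC (edgeR adjusted p = 0.401). The groups overlapped for each of the 3, and their log2 fold changes were 0.08, 0.17 and 0.17.

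The count of PSMB8 over that of PSMB5 was 0.947, 0.803 and 0.875 in ASO libraries, against 0.560, 0.567 and 0.549 in NC libraries. PSMB10 over PSMB7 was 0.0977, 0.0895 and 0.117 in ASO, against 0.0669, 0.0682 and 0.0716 in NC. PSMB9 over PSMB6 was 0.0396, 0.0588 and 0.0352 in ASO, against 0.0371, 0.0325 and 0.0319 in NC. The first 2 ratios were higher in every ASO library than in any NC library, and the third overlapped. These count ratios are not corrected for transcript length. Per kilobase of the principal GENCODE transcript, the level of PSMB5 was 119 CPM in ASO and 176 CPM in NC, and that of PSMB8 was 120 CPM in ASO and 113 CPM in NC. PSMB8 and PSMB9 lie side by side on chromosome 6 and overlap each other, and PSMB9 also overlaps TAP1, so without a known strand setting their reads cannot be fully separated.

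**Figure D3:**
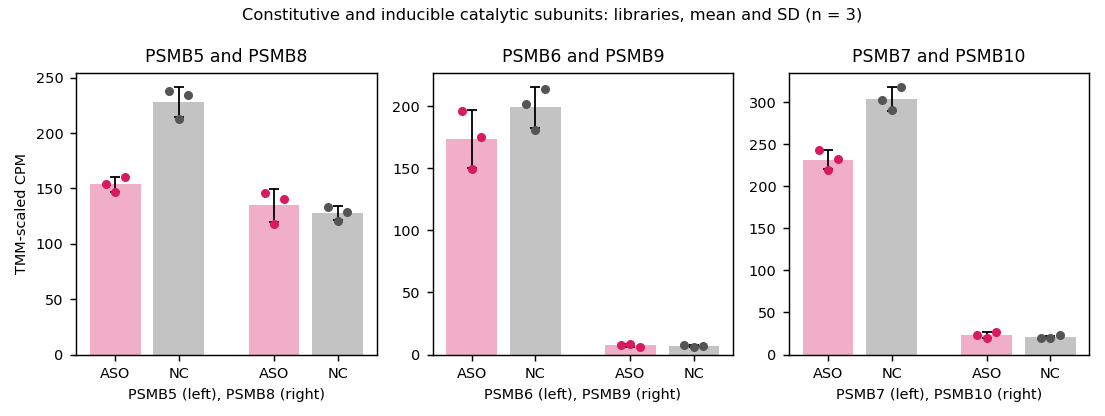
TMM-scaled CPM of each constitutive catalytic subunit (left in its panel) and its inducible counterpart (right), ASO left of NC, with points for libraries and bars for the mean and SD of 3. PSMB5 and PSMB7 are lower in ASO than in NC, PSMB6 overlaps, and PSMB8, PSMB9 and PSMB10 overlap between the groups.

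PSMB11, the catalytic subunit of the thymic proteasome, was the 1 gene called higher. It had 44, 26 and 70 counts in ASO libraries and 5, 0 and 0 counts in NC libraries, where 12 counts is the detection limit. All NC values were under that limit, and the edgeR adjusted p was 0.00907. It passed the filter on low counts through the ASO libraries alone and reached at most 1.4 CPM, and after division of the counts by 4, a setting added after the data were seen, the gene was no longer among those tested.

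All 6 ATPase genes of the 19S base fell, by 1.27-fold to 2.00-fold. PSMC6 was at 12.9, 31.8 and 17.5 CPM in ASO, against 41.7, 49.6 and 33.3 CPM in NC. PSMC2 was at 99.8, 134 and 95.5 CPM in ASO, against 189, 192 and 178 CPM in NC, a fall of 1.70-fold (edgeR adjusted p = 0.00286). PSMC1 was at 161, 207 and 169 CPM in ASO, against 235, 305 and 255 CPM in NC, a fall of 1.48-fold (edgeR adjusted p = 0.0105). In all 3 genes the ASO values stayed below the NC values and ASO 2 was the highest ASO library. PSMC6 fell 2.00-fold with a standard error of 0.32 on the log2 scale (edgeR adjusted p = 0.035), and without ASO 1, ASO 3, NC 1 or NC 2 the adjusted p was 0.0693, 0.112, 0.086 or 0.126. PSMC3, PSMC4 and PSMC5 fell 1.27-fold, 1.32-fold and 1.29-fold. PSMC1 has 13 named pseudogenes in GENCODE, the most of any proteasome gene, and reads shared with them make its level uncertain.

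Of 14 non-ATPase genes of the 19S, 10 fell and 4 did not pass, with a median log2 fold change of -0.43. PSMD14, the deubiquitinase of the lid that strips ubiquitin from substrates (chromosome 2, 161308425 to 161411717), was at 75.4, 111 and 87.5 CPM in ASO, against 179, 213 and 171 CPM in NC. Its fall of 2.06-fold had an edgeR adjusted p of 0.00139. PSMD1, the large scaffold and ubiquitin-binding subunit of the base, was at 116, 155 and 122 CPM in ASO, against 213, 267 and 226 CPM in NC, a fall of 1.80-fold (edgeR adjusted p = 0.00192). PSMD6, a lid subunit, was at 35.7, 35 and 40.5 CPM in ASO, against 59.6, 59.1 and 54.0 CPM in NC, and fell 1.55-fold (edgeR adjusted p = 0.00248). None of the 3 overlapped between the groups.

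PSMD7, the lid partner of PSMD14, fell 1.53-fold, and PSMD2, the other large scaffold of the base, fell 1.40-fold to 600 ± 44.0 CPM in ASO, against 843 ± 40.9 CPM in NC. PSMD4, a ubiquitin receptor, fell 1.29-fold, and the lid subunits PSMD3, PSMD11 and PSMD13 fell 1.31-fold, 1.26-fold and 1.31-fold. PSMD5, PSMD9 and PSMD10 are chaperones of base assembly rather than subunits. PSMD9 fell 1.35-fold (edgeR adjusted p = 0.0111, but 0.0508 without ASO 3), while PSMD10 (edgeR adjusted p = 0.0505) and PSMD5 (edgeR adjusted p = 0.081) did not pass. PSMD8 and PSMD12 had adjusted p of 0.051 and 0.0713. These 4 had log2 fold changes of -0.34 to -0.57, and each passed without 1 library: PSMD5 and PSMD12 without ASO 2 (edgeR adjusted p = 0.006 and 0.0153), PSMD8 without ASO 3 (0.0412) and PSMD10 without NC 3 (0.0189). PSMD10 and PSMD8 lay just outside the threshold and PSMG2, at 0.0468, just inside.

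Taking the constitutive 20S and 19S genes alone, 34 in number, 29 fell and 5 did not pass. The base assembly chaperones PSMD5, PSMD9 and PSMD10 are counted among the 34. All 34 fitted fold changes were negative, with a median of -0.51 on the log2 scale. In 31 of the 34 every ASO value lay below every NC value. Over all tested genes 19.1% were called lower, and 25.9% were separated with ASO below. Among genes at a mean of 10 CPM or more, 24.2% were called lower.

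Of the 4 alternative cap genes, PSME1 fell and the other 3 did not pass. PSME1, a subunit of the interferon-inducible PA28 alpha-beta cap, was at 35, 30.6 and 35.1 CPM in ASO, against 52.5, 53.1 and 52.6 CPM in NC, and fell 1.57-fold (edgeR adjusted p = 0.00185). Its partner PSME2 was at 51.3, 51.8 and 59.1 CPM in ASO, against 56.7, 52.7 and 54.0 CPM in NC (edgeR adjusted p = 0.941). The groups were fully apart for PSME1 and overlapped for PSME2, although the proteins form 1 ring. PSME3, which forms the nuclear PA28 gamma cap, was at 150, 98.8 and 200 CPM in ASO and at 196, 269 and 227 CPM in NC (log2 fold change -0.63, edgeR adjusted p = 0.0652), with ASO 3 above NC 1. PSME4, the PA200 cap, was at 32.1, 60.1 and 39.5 CPM in ASO and at 54.5, 77.6 and 51.3 CPM in NC (log2 fold change -0.48, edgeR adjusted p = 0.158). Without ASO 3 the adjusted p of PSME3 was 0.0214, and without ASO 2 that of PSME4 was 0.0207. PSMF1, the PI31 inhibitor, was at 77.3, 66.8 and 70.6 CPM in ASO and at 76.0, 80.4 and 79.3 CPM in NC (edgeR adjusted p = 0.277). The genes PSME1, PSME3, PSME4 and PSMF1 each overlap another counted gene on the opposite strand, as do PSMB8, PSMB9, PSMC1, PSMC2, PSMC5, PSMD1, PSMG2 and PSMG4. In GENCODE further proteasome genes overlap genes on the opposite strand, PSME2, PSMA3 and PSMD14 among them. The strand setting of the counting is not given in the sources used here.

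Of the 4 assembly chaperones of the 20S core, 2 fell and 2 did not pass. PSMG1 and PSMG2 form a dimer that helps build the alpha ring. PSMG1 was at 35.7, 44.2 and 38.4 CPM in ASO, against 58.4, 74.4 and 53.8 CPM in NC, and fell 1.58-fold (edgeR adjusted p = 0.00925). PSMG2 was at 10.9, 12.8 and 11.2 CPM in ASO, against 16.1, 18.1 and 13.8 CPM in NC, and fell 1.38-fold (edgeR adjusted p = 0.0468). No ASO value of either reached an NC value, but the call of PSMG2 was lost without ASO 1, ASO 3, NC 1 or NC 2, at adjusted p of 0.111, 0.126, 0.131 or 0.169, and under RLE scaling (0.053). PSMG3 and PSMG4 form the second dimer. PSMG3 was at 83.6, 72.3 and 80.4 CPM in ASO and at 65.4, 61.9 and 79.6 CPM in NC (edgeR adjusted p = 0.236), and PSMG4 was at 37.2, 37.1 and 38.4 CPM in ASO and at 45.1, 42.6 and 48.1 CPM in NC (edgeR adjusted p = 0.0612, but 0.0486 under upper quartile scaling and 0.0435 under library totals). The ASO values of PSMG4 were all below its NC values and those of PSMG3 overlapped, and the fitted fold changes had opposite signs.

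GC content of the principal transcript was available for 14015 of the 14062 tested genes and for all 47 proteasome genes. Across 46 proteasome genes without PSMB11, log2 fold change and GC content had a Spearman rho of 0.74 and a Pearson r of 0.71. Across all tested genes with a value, rho was 0.37 and r was 0.25. Inside classes rho was 0.07 for the 7 alpha ring genes, 0.38 for the 14 19S non-ATPase genes and 0.94 for the 6 19S ATPase genes. These are correlations across genes of the same 6 libraries, and genes are not independent replicates. Alpha ring transcripts had a median GC content of 42.1%, 19S ATPase transcripts 50.4% and inducible beta transcripts 56.1%.

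The 34 constitutive genes were split into 17 of lower GC content, 36.8% to 47.9%, and 17 of higher GC content, 48.3% to 58.6%. The median log2 fold change was -0.77 in the lower-GC genes, where 3627 genes at 10 CPM or more in the same GC range had a median of -0.29. The Spearman correlation with GC content was 0.17 inside these 17 genes and 0.42 inside the other 17. The median was -0.39 in the higher-GC genes, where 3116 genes in range had a median of -0.00. The comparison genes were not matched on length. Their median transcript length was 4041 bases in the lower GC range and 2877 in the higher, against 2188 and 1553 for the proteasome genes. The order of the libraries also turned with GC content. Among the 17 lower-GC genes, ASO 2 was the highest ASO library in 16 and NC 2 the highest NC library in 15. Among the 17 higher-GC genes, ASO 2 was the lowest ASO library in 13 and NC 2 the lowest NC library in 15.

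**Figure D4:**
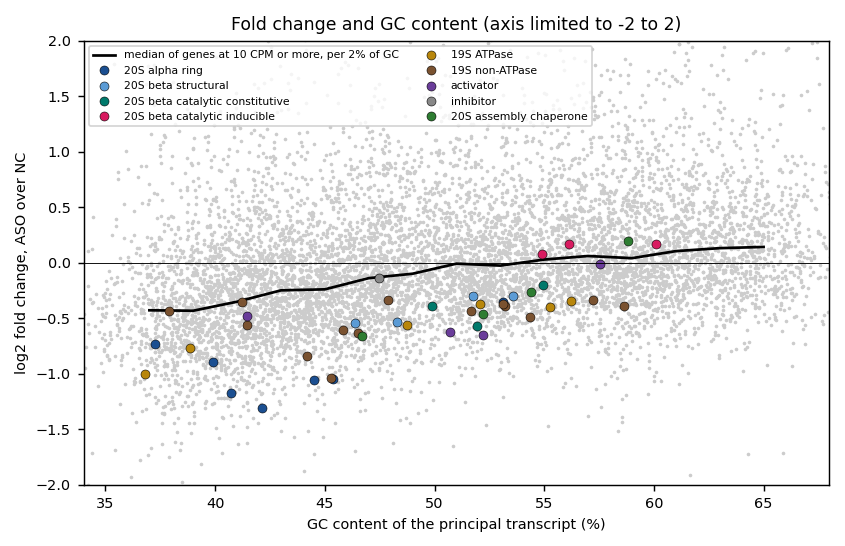
Log2 fold change of ASO over NC against the GC content of the principal transcript, with proteasome genes coloured by class over genes at 10 CPM or more in grey and their running median as a line. Both axes are limited, the vertical one to -2 to 2, and PSMB11 and PSMA8 are left out; most proteasome genes lie below the line, and the lowest ones lie at the left.

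A fit with offsets for GC content and length, added after the data were seen, gave 29 lower and 3 higher proteasome genes, with a median log2 fold change of -0.30. In that fit 19.4% of all genes were lower and 32.4% higher, with a median of 0.10. The median of the alpha ring was -0.67. PSMA4 stood at -1.09 (edgeR adjusted p = 0.0049) and PSMD14 at -0.78 (edgeR adjusted p = 0.000311). The calls of PSMA3, PSMA5, PSMB4 and PSMG2 were lost, at adjusted p of 0.107, 0.075, 0.104 and 0.0913, and that of PSMD8 was gained at 0.00673. PSMB8 rose there by 0.20 (edgeR adjusted p = 0.0153) and PSMG3 by 0.25 (edgeR adjusted p = 0.0235) on the log2 scale, beside PSMB11. The medians of the constitutive catalytic and the inducible genes were -0.18 and 0.22.

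Genes that work with the proteasome under other names were followed in a list of 32, all tested. Of these, 13 fell, 4 rose and 15 did not pass, with a median log2 fold change of -0.26. Background shares over all tested genes were 19.1% lower and 26.8% higher. Among genes at a mean of 10 CPM or more, to which 31 of the 32 belong, they were 24.2% and 21.2%. Single libraries moved the counts of partners called. Lower calls numbered 6 without ASO 3 and 8 without ASO 1 or NC 1, and higher calls numbered 2 without ASO 3, NC 2 or NC 3. The largest falls were those of SEM1, POMP, UCHL5, UBA6 and VCP, and the rises included ZFAND2A, AKIRIN2 and UBE3C.

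SEM1, the smallest lid subunit, was at 58.9, 75.2 and 64.3 CPM in ASO, against 116, 121 and 109 CPM in NC, and fell 1.74-fold (edgeR adjusted p = 0.00106). POMP, the maturation chaperone of the 20S core, was at 16.7, 35.1 and 25.6 CPM in ASO, against 43.7, 51.3 and 37.2 CPM in NC, and fell 1.71-fold (edgeR adjusted p = 0.041). Both were fully separated by group, yet with the GC and length offsets their log2 fold changes were -0.12 (edgeR adjusted p = 0.398) and -0.10 (edgeR adjusted p = 0.465). POMP also lost its call without ASO 1, ASO 3, NC 1, NC 2 or NC 3, at adjusted p of 0.0661, 0.106, 0.0982, 0.14 or 0.0572. ADRM1, a ubiquitin receptor of the 19S, was at 299, 225 and 282 CPM in ASO and at 243, 212 and 245 CPM in NC (log2 fold change 0.20, edgeR adjusted p = 0.203, but 0.0168 without ASO 2).

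VCP, the unfoldase p97 that hands substrates to the proteasome, was at 415, 363 and 394 CPM in ASO, against 594, 638 and 555 CPM in NC, and fell 1.52-fold (edgeR adjusted p = 0.00103). UCHL5, a deubiquitinase docked on the 19S, fell 1.65-fold (edgeR adjusted p = 0.034), a call lost without ASO 1, ASO 3, NC 1 or NC 2 (0.083, 0.0983, 0.0757 or 0.127). UBA6, an alternative ubiquitin-activating enzyme, fell 1.60-fold (edgeR adjusted p = 0.0204), with its call lost without the same libraries (0.0562, 0.0759, 0.0831 or 0.0805) and with the GC and length offsets (0.0708). NFE2L1 was at 303, 222 and 266 CPM in ASO, against 375, 338 and 372 CPM in NC, and fell 1.37-fold (edgeR adjusted p = 0.0154, but 0.0511 without ASO 3). Every ASO value of NFE2L1 lay below every NC value. NFE2L2, its relative of the oxidative stress response, was at 92.1, 65.3 and 105 CPM in ASO and at 69.9, 74.8 and 16.3 CPM in NC, with NC 3 far below the rest (edgeR adjusted p = 0.272).

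ZFAND2A, an arsenite- and heat-inducible protein that associates with the 19S, was at 12.2, 12.3 and 13.3 CPM in ASO, against 5.64, 6.69 and 4.83 CPM in NC, and rose 2.20-fold (edgeR adjusted p = 0.00161). AKIRIN2, which brings assembled proteasomes into the nucleus, was at 42.2, 36.9 and 45.4 CPM in ASO, against 26.9, 29.4 and 26.0 CPM in NC, and rose 1.51-fold (edgeR adjusted p = 0.00572). Both kept the groups apart. UBB, a polyubiquitin gene, was at 358, 318 and 383 CPM in ASO, against 453, 569 and 512 CPM in NC, and fell 1.45-fold (edgeR adjusted p = 0.00555). UBE3C, a ligase bound to the proteasome, rose 1.17-fold (edgeR adjusted p = 0.044), and leaving out any library other than ASO 1 gave 0.0533 to 0.148.

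**Figure D5:**
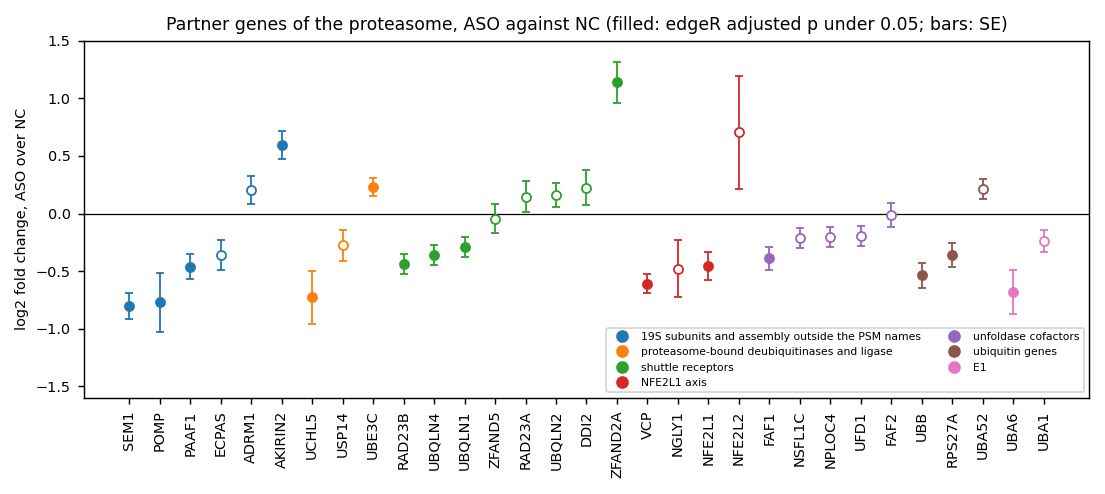
Fitted log2 fold change of ASO over NC for the proteasome partner genes reported here, grouped by role, with bars of 1 standard error; filled points passed the edgeR threshold. ZFAND2A is the highest called point at 1.14 and SEM1 the lowest at -0.80.

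Of 12 genes of inducible proteasome regulation and antigen processing, 3 rose, 3 fell and 6 did not pass. These counts are near the background shares of 26.8% higher and 19.1% lower over all tested genes. IRF1, a transcription factor that can switch on the inducible subunits, was at 195, 159 and 187 CPM in ASO, against 11.6, 10.7 and 12.8 CPM in NC, and rose 15.4-fold (edgeR adjusted p = 9.89e-07). The groups did not overlap. TAP1, the peptide transporter gene next to PSMB9, rose 1.45-fold to 148 ± 18.0 CPM in ASO, against 103 ± 7.07 CPM in NC (edgeR adjusted p = 0.00676). B2M, the light chain of MHC class I, fell 1.76-fold (edgeR adjusted p = 0.0295), a call lost without ASO 3, NC 1, NC 2 or NC 3 (0.0954, 0.0594, 0.132 or 0.0676) and with the GC and length offsets (0.0795). HLA-B and HLA-C, heavy chains that pair with it, did not pass (edgeR adjusted p = 0.214 and 0.632).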

How the data were processed

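The authors deposited estimated counts per gene for 6 libraries, all whole numbers. Per the submitters' processing notes the tools were FastQC, STAR, StringTie and DESeq2, on hg38, with no version or role stated. Annotation release, strand setting and the treatment of shared reads are not given. In every library more genes had 4 counts (226 to 296) than 3 (74 to 121) or 5 (138 to 199), as when 1 fragment is worth about 4 counts. That peak does not fix the worth of a fragment, and lower values occur, such as 1 count of LGALS4 in NC 3. On this reading the detection limit was set at 3 fragments, 12 counts. Such limits cover counting error only.

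R 4.3.3 was used, with edgeR 4.0.16 for the main test and limma 3.58.1. After filterByExpr (minimum count 10, minimum total 15) 14062 genes were tested and 5593 were left out. Libraries were scaled by TMM (factors 0.978 to 1.02), and the robust quasi-likelihood test was applied to ASO over NC, with Benjamini-Hochberg adjustment over every gene tested and a threshold of 0.05. On simulated data the test missed a larger part of the changed genes than the limit first set for it allowed, and that limit was then lowered, so a gene that did not pass may still differ. Values per library are TMM-scaled CPM, and folds are those of the model.

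The members, lists, classes and tests were chosen with earlier results of these data known. Per-library values are given for the catalytic, inducible, PSME, PSMF1 and PSMG genes, for the 3 largest fold changes in each other class, and for a few named regulators. Among the partners they cover the 5 largest called falls and the called rises reported here. UCHL5, UBA6 and UBE3C are exceptions, with fold and adjusted p only. PSMB11, PSMA7, PSMD2, TAP1, the epithelial, mesenchymal and haematopoietic markers and genes whose calls were lost are named beyond that rule, after their values were seen. A few genes of the lists are counted but not reported here by name. Transcript length and GC content come from GENCODE v29 principal transcripts, and promoters from RefSeq (GRCh38.p14), matched by symbol.

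Alternatives were RLE, upper quartile and total scaling, 2 filters, DESeq2 1.42.0, limma-voom, a replicate block, removal of mitochondrially encoded genes and leaving out each library. Offsets for GC content and length (lowess trends per library) and division of the counts by 4 were added after the data were seen.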

Additional observations from a re-analysis of the deposited data

How the results depend on the processing

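Lower proteasome genes numbered 27 to 38 over all alternatives, against 32 in the report: 31 under RLE scaling, 35 under upper quartile, 34 under library totals, 34 with DESeq2 and 33 with limma-voom. Higher ones numbered 3 with GC content and length offsets and 0 after division of the counts by 4, where PSMB11 fell to the filter, and 1 otherwise. Leaving out 1 library gave 27 (without NC 1) to 35 (without ASO 2) lower genes, 6 to 15 lower partners and 2 to 5 higher partners. Higher partners numbered 9 with GC content and length offsets. Under those offsets ZFAND5 turned to 0.27 (edgeR adjusted p = 0.0422) and RPS27A to 0.023 (edgeR adjusted p = 0.668) on the log2 scale, and the cause was not tested. With the replicate number as a block, 38 proteasome genes were lower and 1 higher, and 18 partners were lower and 6 higher; PSMD5, PSMD8, PSMD10, PSMD12, PSME4 and PSMG4 were the proteasome genes gained. The numbers were not taken as pairs: same-numbered libraries correlated at 0.11, 0.36 and 0.07 in their deviations over all genes, and ASO 1 correlated best with NC 3 (0.20). Over the proteasome genes alone the same-numbered values were 0.41, 0.68 and 0.28, and ASO 1 again correlated best with NC 3 (0.72). Over the tested proteasome genes, 745 comparisons of an alternative with the reported value stayed on the same side of the threshold. Another 25 passed only in the alternative and 28 only in the reported test. Direction was kept wherever either of the compared fits passed. It could turn where neither passed, as for PSME2, from -0.011 in the report to 0.004 under RLE scaling on the log2 scale. PSMB11 was under the 12-count limit in every NC library, and PSMA8 had no count.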
